A study of Mus musculus with 21 samples.

Results

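The genes described here encode the proteins of the cytosolic ribosome of the mouse. They were taken as every row whose gene symbol was Rpl or Rps followed by a number, with an optional letter and number, together with Rplp0, Rplp1, Rplp2 and Rpsa. This gave 89 of the 57180 rows of the count table. Of these, 87 passed the low-count filter and were tested among 18867 genes, while Rpl3l and Rpl10l did not. Of the tested members, 77 encode core proteins (31 of the small 40S subunit, 43 of the large 60S subunit and 3 of the P-stalk), 5 are divergent paralogs and 5 are near-identical copies of a core gene.

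RNA-seq was done on cells sorted from the brains of adult mice, in 21 libraries labelled biological replicates. Transplanted microglia (MG) and transplanted monocyte-derived microglia (MLC) both had the genotype Osb-GFP. Microglia of mice without a transplant (NoTx) had the genotype CX3CR1-CreER+/-; CSF1R fl/fl, in which an inducible Cre under the Cx3cr1 promoter can delete Csf1r. The saline group had 3 libraries of MG, 3 of MLC and 2 of NoTx. The seizure group, sampled 5 days after kainic acid, had 4 of MG, 6 of MLC and 3 of NoTx. Batch 2 held every saline library and batch 1 every seizure library, and these factors therefore cannot be told apart. Donor genotype and transplantation differ together between MG or MLC and NoTx, and they also cannot be told apart.

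Each ribosome has a small subunit that decodes the mRNA and a large subunit that joins amino acids, and most of its proteins are needed in equal amounts. The P-stalk of the large subunit, built from Rplp0, Rplp1 and Rplp2, recruits the elongation factors. Many ribosomal protein mRNAs start with a run of pyrimidines, the 5′ terminal oligopyrimidine tract, through which mTOR and Larp1 control their translation. A few mammalian paralogs replace a core protein in particular tissues, such as Rpl39l and Rpl10l in male germ cells and Rpl3l in striated muscle. Microglia are the tissue macrophages of the brain.

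The paralogs Rpl39l and Rps4l had the largest spreads of log2 CPM among the tested members (SD 2.15 and 3.05). They are shown beside the core genes they resemble, with the differing bases in capitals. The whole coding part is shown for Rpl39l. Rps4l has no annotated coding part, and the first 90 bases of its transcript are shown. Rpl39l (GRCm38, chr16:10170226-10174911, + strand) is a protein-coding gene, and its core counterpart Rpl39 lies on the X (chrX:37082520-37085402, - strand). Their coding parts differ at 23 of 153 bases.
Rpl39: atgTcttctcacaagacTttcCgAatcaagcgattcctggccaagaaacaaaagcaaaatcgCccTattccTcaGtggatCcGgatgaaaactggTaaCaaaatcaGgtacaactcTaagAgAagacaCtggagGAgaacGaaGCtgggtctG
Rpl39l: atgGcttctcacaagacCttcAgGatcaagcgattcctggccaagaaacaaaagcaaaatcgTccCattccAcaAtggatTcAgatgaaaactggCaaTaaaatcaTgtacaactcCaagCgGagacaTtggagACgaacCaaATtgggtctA
Rps4l (chr6:148354656-148355598, + strand) is annotated as a transcribed processed pseudogene, and Rps4x lies on the X (chrX:102184941-102189394, - strand). Over the aligned 789 bases they differ at 161. Of the first 90 bases, 15 differ.
Rps4x: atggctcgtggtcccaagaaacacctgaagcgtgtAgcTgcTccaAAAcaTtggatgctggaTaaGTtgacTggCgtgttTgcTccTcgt
Rps4l: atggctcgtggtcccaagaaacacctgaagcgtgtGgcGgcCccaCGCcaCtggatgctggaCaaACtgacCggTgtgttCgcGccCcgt
No stretch of 50 bases was shared within either pair, and the share of such stretches was also 0% for Rpl7l1 and Rpl7 (60.3% identity), Rpl22l1 and Rpl22 (70.2%) and Rps27l and Rps27 (76.2%).

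Pyrimidine runs near the start site, which the choice by name did not use, were found in a larger share of core genes than of all genes, though not in every core gene. Of the 77 core members, 57 were found in the RefSeq promoter table (GRCm38.p6). In 31 of these 57 (54.4%) the 30 bases around the start held an unbroken run of at least 7 C or T on the sense strand, against 21.3% of all 27025 genes in the table. The capitals mark the longest run of each window. A run could lie anywhere in the window and was not required to touch the start, so it need not be a 5′ terminal tract.
Rpl7a (chr2:26910792-26910821, +): aTTCCCTCTTCTTTCTTTCTCCagcagccg
Rpl27a (chr7:109519180-109519209, +): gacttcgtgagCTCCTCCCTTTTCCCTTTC
Rpl35 (chr2:39005117-39005146, -): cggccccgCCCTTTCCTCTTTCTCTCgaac
Rpl4 (chr9:64173372-64173401, +): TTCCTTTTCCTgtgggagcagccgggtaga
Rplp2 (chr7:141447636-141447665, +): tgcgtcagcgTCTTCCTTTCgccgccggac
Rpl39l (chr16:10170213-10170242, +): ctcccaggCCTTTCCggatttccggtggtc
Rpl7l1 (chr17:46782642-46782671, -): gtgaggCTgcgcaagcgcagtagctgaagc
The run was 21 bases in Rpl7a, 7 in the paralog Rpl39l and 2 in Rpl7l1. The hexamer CTTTCC on the sense strand stood in 15.8% of the core windows and 1.67% of all windows. The motif CCGGAAG, on either strand of the 300 bases around the start, stood in 42.1% of core promoters and 9.93% of all. These are matches of letters and not measured binding sites.

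Library totals were 36528922 to 50316320 counts after saline and 6571292 to 73842049 after seizure. At an equal depth of 6571262 counts, 11555 to 11990 genes reached 10 counts in saline libraries and 8914 to 11679 in seizure libraries. The lowest were MG seizure replicate 3, MLC seizure replicate 5 and MG seizure replicate 4. Microglial and macrophage markers (11 of 12 in the table, none at 0) summed to 54063 to 87977 CPM (the usual library-scaled count unit, here TMM-normalised) in MG and NoTx libraries and 16781 to 44765 in MLC libraries. Of the lists of other cells, neutrophil markers reached 1655 CPM in NoTx saline and 820 in NoTx seizure libraries, against at most 18.5 elsewhere. The 6 B cell markers summed to 618 to 1614 CPM in MG, 727 to 1397 in NoTx and 230 to 888 in MLC libraries. Nearly all of that was Ighm and Cd79b, while Pax5 was at 0 in every library. The 5 red cell markers reached 951 CPM in MLC seizure, 505 in MLC saline, 563 in NoTx saline and at most 193 CPM in the other groups. Blood monocyte markers (7) summed to 134 and 1008 CPM in the NoTx saline libraries and to 5.94 to 130 CPM in the NoTx seizure libraries, against at most 54.3 elsewhere. The 8 astrocyte markers summed to 304 to 569 CPM in MG and NoTx and 4.04 to 147 in MLC libraries. Of that list, Slc1a3 alone was 272 to 569 CPM in MG and NoTx and at most 19.7 in MLC, and Aqp4 did not exceed 1.62 CPM in any group. The 8 endothelial and mural markers summed to 4.35 to 62.4 CPM in MG and NoTx and at most 6.56 in MLC. Xist was 187 to 421 CPM in MG and at most 7.51 in MLC libraries, while NoTx libraries had 0.521 and 0.915 after saline and 2.28 to 297 after seizure. The sum of 4 Y-linked genes was 0.777 to 97.3 CPM in MG saline, 77.9 to 222 in MG seizure and 391 to 1428 in MLC libraries, and 451 to 534 in NoTx saline and 2.29 to 387 in NoTx seizure libraries. In both treatments every MG library had more Xist and a lower Y-linked sum than every MLC library. A difference between MLC and MG is therefore also a difference between libraries of unlike sex-linked expression, and these libraries offer no way to separate them. This holds for the X-linked Rpl39 and Rps4x as well. The part of all these marker differences in the results below was not tested.

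Ribosomal protein genes took about 1% of the counts of every library. The share was 0.882% ± 0.194 (SD, n = 3) in MG, 0.907% ± 0.0392 (n = 3) in MLC and 0.959% ± 0.179 (n = 2) in NoTx libraries after saline. After seizure it was 1.02% ± 0.119 (n = 4) in MG, 1.12% ± 0.165 (n = 6) in MLC and 0.996% ± 0.0310 (n = 3) in NoTx. The groups overlapped, except that the lowest NoTx seizure library, at 0.964%, stood above all MLC saline libraries, which reached 0.949%. Over single libraries the share ran from 0.688% in MG saline replicate 1 to 1.36% in MLC seizure replicate 6. That last library and MLC seizure replicates 4 and 5 also had the highest shares of mitochondrially encoded transcripts, 1.89%, 1.55% and 2.51%. In bulk samples of sorted cells, fewer cells of a type and less RNA per cell cannot be told apart.

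**Figure D1:**
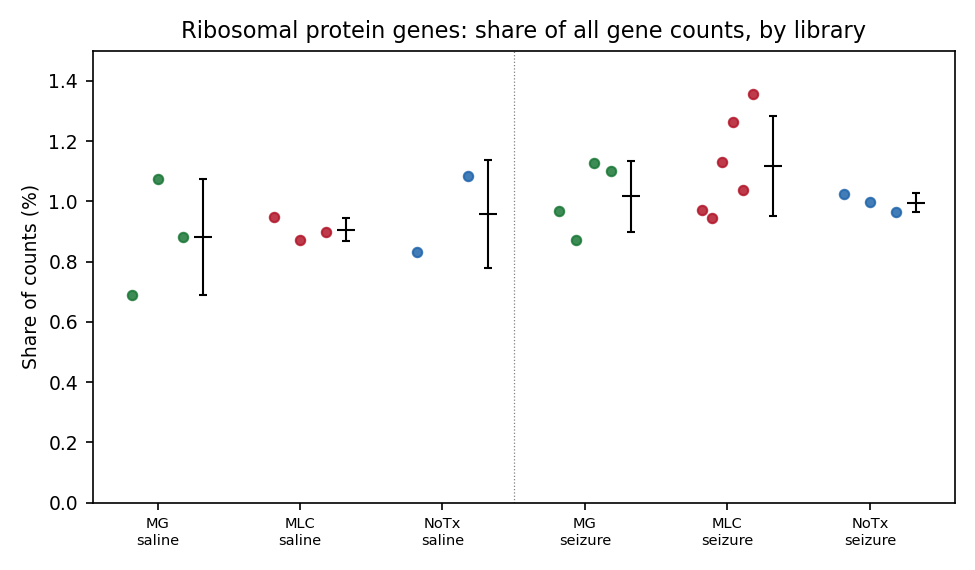
Share of all gene counts (%) in ribosomal protein genes for each of the 21 libraries (points), with the mean and SD of each group beside them (black). The dotted line separates saline (batch 2) from seizure (batch 1) libraries. Values run from 0.688% to 1.36%, and the MLC seizure group holds the highest.

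Counts of 60S genes exceeded those of 40S genes in all libraries, by 1.47 to 1.73 times. The NoTx seizure libraries had ratios of 1.61 to 1.73, and the other 18 libraries lay at or below 1.63. P-stalk genes took 0.0320% to 0.0638% of counts. Among the highest mean CPM over 21 libraries were those of Rpl4 (491) and Rpl35 (386), both of the large subunit. Per kilobase of mRNA, mean levels of core genes spanned a 56.6-fold range. They were highest for Rps27 (575 CPM per kilobase), Rps14 (495) and Rps9 (461) and lowest for Rpl12 (30.1), Rpl39 (26.0) and Rps20 (10.2). The value of Rps20 rests on a transcript model of 3706 bases for a coding part of 357. Over the core genes Spearman's rho between coding length and mean CPM was 0.52, a description across genes that share libraries.

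Most core genes varied little between libraries. The SD of log2 CPM over the 21 libraries had a median of 0.39 and was under 0.5 in 67 of the 77. Among the smallest were those of Rpl5 (0.25) and Rpl28 (0.27), both of the large subunit. Across pairs of core genes (2926 pairs) the correlation of log2 CPM over 21 libraries had a median of 0.42, and 0.49 after group means were removed. Among the closest to the mean of the other core genes were Rps14 (r = 0.93) and Rplp1 (0.92), and the farthest were Rpl8 (0.098) and Rps29 (0.10). Rpl7l1 (-0.31), Rpl39l (-0.28) and Rps4l (-0.12) had negative values. These points share libraries, depth and scaling, and the values are a description.

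A few core genes did vary widely within groups. Rpl13, a 60S protein, was 32.5, 73.3 and 219 CPM in the MG saline libraries and 32.9 and 42.9 CPM in NoTx saline. Rps2, a 40S protein at the mRNA entry channel, was 10.5, 15.2 and 70.9 CPM in MG saline. MLC saline libraries had 76.8, 21.3 and 20.2 CPM of Rps2. For both genes 1 library was several times above the others of its group. Rps12 of the 40S subunit ran from 5.14 to 49.7 CPM within the 6 MLC seizure libraries, and Rpl22 from 4.00 to 23.2 CPM within MG seizure.

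**Figure D2:**
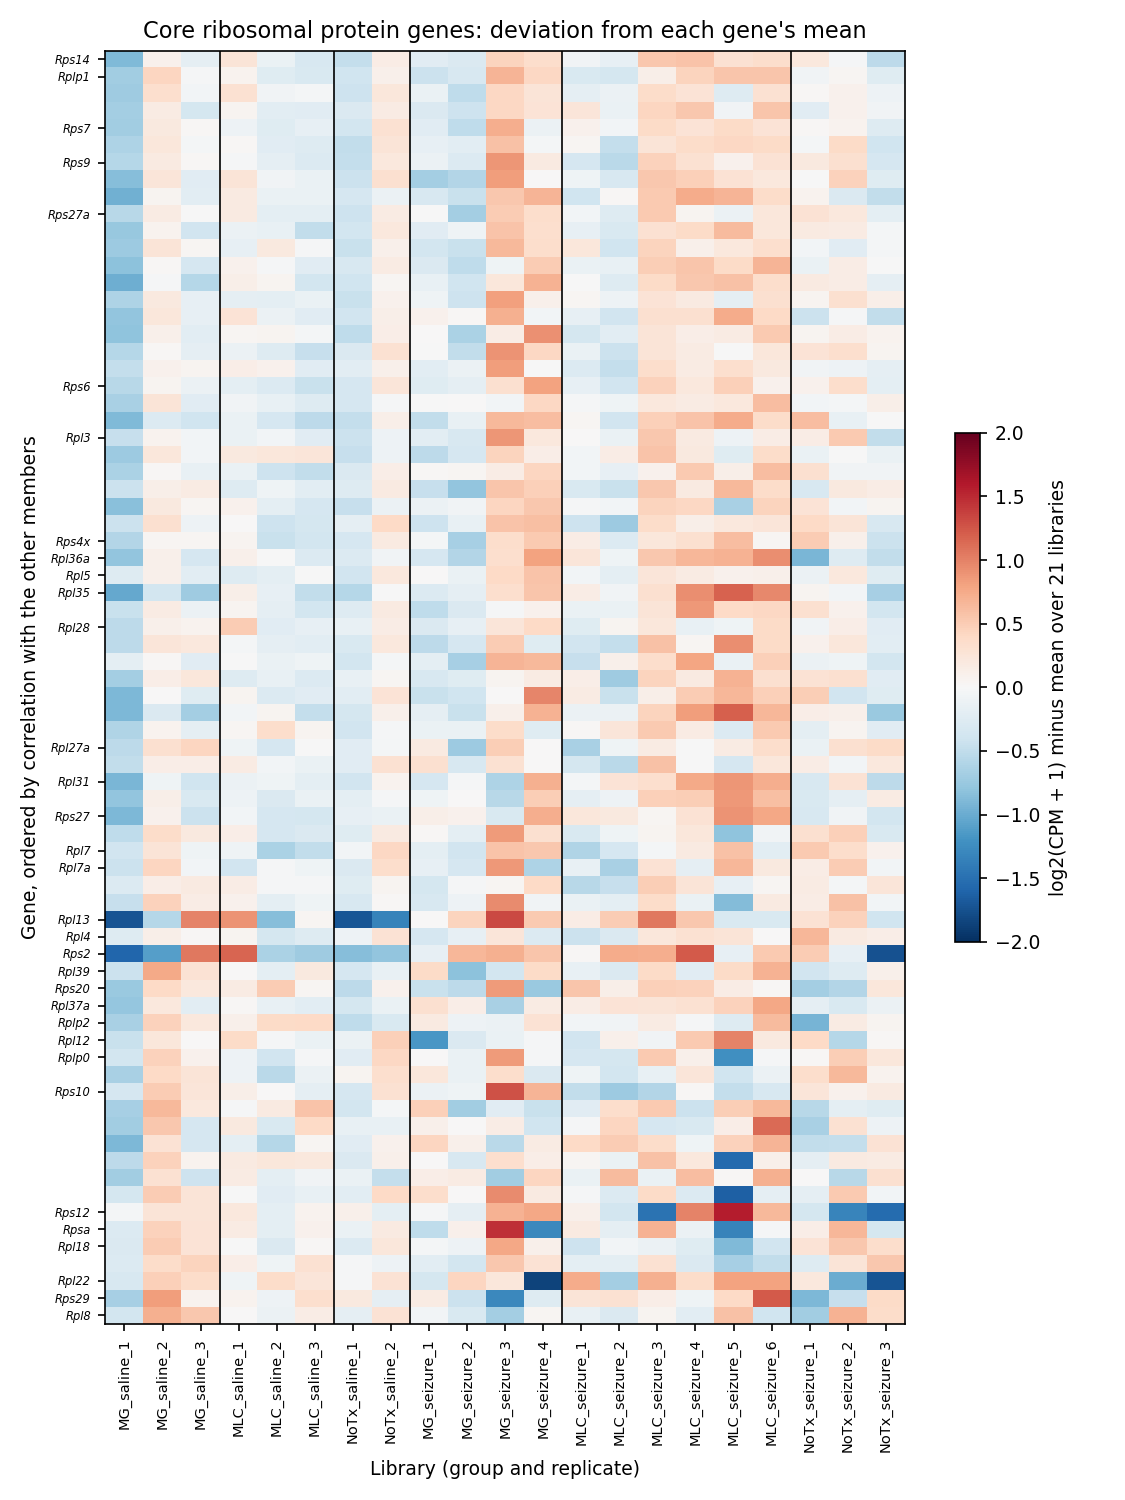
Deviation of log2(CPM + 1) from each gene's mean over 21 libraries (colour, -2 to 2) for 74 of the 77 core genes (rows, ordered by correlation with the other core genes, labelled where the text names the gene) in each library (columns, grouped by cell type and treatment). Columns such as MG saline replicate 1 are low and MG seizure replicate 3 high in most upper rows, while Rpl13, Rps2, Rps12 and Rpl22 break the pattern.

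Next, MLC were compared with MG, the comparison of the 2 transplanted cell types. No member passed an adjusted p of 0.05 after saline by edgeR's quasi-likelihood test, where 1.58% of all genes did, or after seizure, where 5.88% did. At an unadjusted p under 0.05 there were 2 and 7 of 87 members, against 8% and 24.9% of all genes. The median log2 fold change of members was 0.01 after saline and 0.05 after seizure, against 0.00 over all genes in both. The quartiles of members were -0.15 and 0.19 after saline and -0.14 and 0.23 after seizure, and the median SE was 0.36 and 0.29. DESeq2 called 0 members after saline and 4 after seizure, and limma-voom called 2 and 1. Rps4l was among the calls of limma-voom in both treatments, and among those of DESeq2 after seizure.

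MLC were then compared with NoTx microglia, a comparison that shares the MLC libraries with the one before. After saline no member passed, against 1.26% of all genes, with 2 members at an unadjusted p under 0.05 (8.08% of all genes), 0 called by DESeq2 and 2 by limma-voom. After seizure 0 members were higher and 2 were lower in MLC, against 2.55% of all genes called higher and 3.61% called lower (6.16% in either direction). At an unadjusted p under 0.05 there were 8 members, against 24.8% of all genes. The 2 were the paralogs Rpl39l and Rpl7l1. The direction of Rpl39l was set by the low-count filter, as described below. The median of members was -0.01 after saline (all genes 0.08) and 0.18 after seizure (all genes 0.00). The value after seizure was 0.06 without NoTx seizure replicate 3 (all genes 0.08) and 0.14 by limma-voom (all genes 0.23). It was -0.0014 with the replicate number as a block (all genes 0.0040). In these 3 settings it was not above that of all genes. It stayed above with RLE scaling (0.35, all genes 0.13), with only the groups compared (0.29, all genes 0.01) and without MLC seizure replicate 2 (0.27, all genes 0.00). Relative to the median of all genes it ran from -0.095 to 0.28 over all alternatives. After seizure 60 of 87 members had positive values, against 49.5% of all genes. The 40S genes had a median of 0.28, with 26 of 31 positive, and the 60S genes had 0.16, with 27 of 43 positive. Rps27, a 40S protein, had the values 223, 216, 196, 233, 355 and 325 CPM in MLC seizure and 152, 181 and 146 CPM in NoTx seizure libraries. All MLC values were above the NoTx values, and the log2 difference was 0.69 (SE 0.28, adjusted p = 0.143, edgeR). In this comparison 3 members were higher in MLC without overlap (Rpl37a, Rpl36a and Rps27) and 4 lower (Rps10, Rpl18, Rps4l and Rpl7l1), where 4.12% and 5.1% of all genes did so. Rps10 of the 40S subunit was 19.1 to 33.0 CPM in MLC and 34.6 to 38.6 CPM in NoTx seizure libraries. After saline 8 members were higher and 8 lower in MLC without overlap, against 15.3% and 18% of all genes. Over the core genes Spearman's rho between mRNA length and log2 fold change was -0.43 here and -0.37 in MLC against MG after seizure, so the shorter mRNAs tended to the higher values in MLC. The part of length in these differences was not tested.

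Rpl39l, the paralog of the exit-tunnel protein Rpl39, had no count in any of the 9 MLC libraries. It passed the low-count filter only through MG and NoTx libraries, and a gene kept in this way can only come out lower in MLC. The direction of its differences was thus set by the filter, and they are given as a description. Its levels were 1.07, 1.87 and 2.03 CPM in MG saline and 0.260 and 0.464 CPM in NoTx saline libraries. After seizure they were 1.28, 0.249, 0 and 0 CPM in MG and 1.73, 3.07 and 0 CPM in NoTx. MLC did not overlap the other groups after saline, and after seizure 3 libraries of the other cell types were at 0 as well. A count of 0, with a floor of 3 counts per library, allows up to 0.0809 CPM in MLC saline and 0.417 CPM in MLC seizure libraries. Set against the mean of these floors, Rpl39l was at least 24.5-fold lower in MLC than in MG and at least 5.36-fold lower than in NoTx after saline. With 1 library left out, these saline bounds ran from 21.8-fold to 28.9-fold against MG and from 3.85-fold to 6.87-fold against NoTx. After seizure Rpl39l was at least 1.31-fold lower than in MG and at least 5.48-fold lower than in NoTx. These bounds after seizure rest on single libraries. Without MG seizure replicate 1 the MG mean of 0.0831 CPM was under the mean floor of 0.292 CPM and no bound is left, and without NoTx seizure replicate 2 or 3 the bound against NoTx was 2.96-fold or 8.22-fold. The call against NoTx after seizure had an adjusted p = 0.0460 by edgeR, and the other comparisons had adjusted p values of 0.106 (MG, seizure), 0.245 (MG, saline) and 0.477 (NoTx, saline). The call was lost without any 1 of MLC seizure replicates 1 to 6 or NoTx seizure replicates 1 and 2, and held without NoTx seizure replicate 3, and over all alternatives the adjusted p ran from 0.0311 to 0.258. Rpl39 itself was 15.4, 13.2 and 17.6 CPM in MLC saline, within the 11.1 to 26.6 CPM of MG saline.

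Rps4l, the copy related to Rps4x of the 40S subunit, had the widest spread of all tested members (SD of log2 CPM 3.05). It was 13.8, 22.9 and 19.9 CPM in MG saline and 11.7 and 19.0 CPM in NoTx saline, against 0, 2.21 and 2.05 CPM in MLC saline. After seizure it was 6.58, 20.3, 48.7 and 12.6 CPM in MG and 41.3, 10.3 and 9.89 CPM in NoTx. The 6 MLC seizure libraries had 0.973, 0, 4.96, 2.76, 0.135 and 0 CPM. MLC libraries were thus below all MG and NoTx libraries in both treatments, with no overlap in any of the 4 comparisons. In MLC against MG 4 members were lower without overlap after saline (Rpl39l, Rps4l, Rpl7l1 and Rpl6l) and 1 after seizure (Rps4l), where 12.4% and 2.96% of all genes did so. Of these, Rpl39l could only be lower because of the filter. The copy Rps3a3 was the 1 member higher without overlap after saline, and 0 were after seizure, against 10.4% and 2.44% of all genes. The log2 differences of Rps4l were -3.72 (SE 1.62) and -3.86 (SE 1.21) from MG after saline and seizure, and -3.43 (SE 1.67) and -3.75 (SE 1.25) from NoTx. None passed by edgeR, with adjusted p values of 0.515, 0.0606, 0.629 and 0.0757. Rps4x was 99.4 to 242 CPM over all libraries. The ratio of Rps4l to Rps4x was 0.0430 to 0.243 in MG, 0.0608 to 0.184 in NoTx and 0 to 0.0270 in MLC libraries.

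Rpl7l1, related to Rpl7 and known as a factor of 60S assembly, was the other member called lower in MLC against NoTx after seizure, beside Rpl39l. It was 197, 252 and 239 CPM in MG saline, 195 and 212 CPM in NoTx saline, and 174, 131 and 164 CPM in MLC saline. After seizure it was 189, 199, 156 and 146 CPM in MG and 213, 224 and 207 CPM in NoTx. MLC seizure libraries had 94.7, 136, 157, 115, 51.2 and 79.4 CPM, all below NoTx but overlapping MG in replicate 3. The log2 difference from NoTx after seizure was -1.02 (SE 0.27, adjusted p = 0.0270, edgeR). From MG it was -0.55 (SE 0.32, adjusted p = 0.818) after saline and -0.71 (SE 0.25, adjusted p = 0.0981) after seizure, and from NoTx after saline -0.38 (SE 0.36, adjusted p = 1.00). The call of Rpl7l1 was lost without any 1 of MLC seizure replicates 1 and 6 or NoTx seizure replicates 1, 2 and 3, and over all alternatives its adjusted p ran from 0.00627 to 0.154. The change of the MLC against MG difference with seizure was -0.14 (SE 1.87) for Rps4l and -0.16 (SE 0.41) for Rpl7l1, and neither passed the interaction test in edgeR. Rpl7 overlapped between MLC and MG in both treatments.

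**Figure D3:**
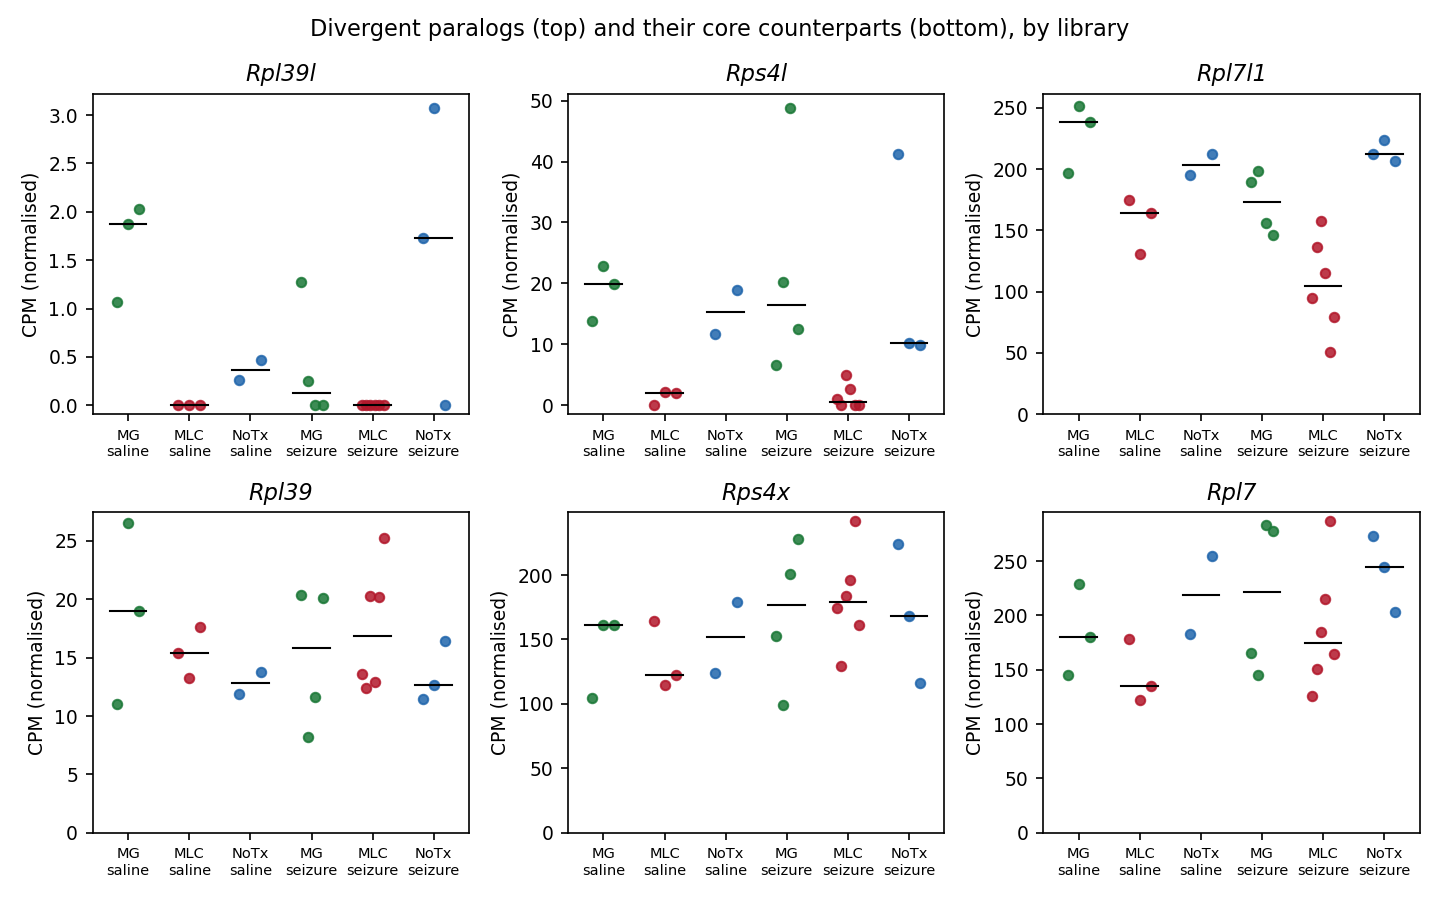
TMM-normalised CPM (linear axes) of Rpl39l, Rps4l and Rpl7l1 (top) and of Rpl39, Rps4x and Rpl7 (bottom) for each library (points) in the 6 groups, with group medians as black lines. MLC points (red) lie at 0 for Rpl39l and at or below 4.96 CPM for Rps4l, while Rpl39 and Rps4x below them overlap between cell types in both treatments, as Rpl7 does except in MLC against NoTx after saline.

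The other paralogs mostly overlapped between cell types. Rpl22l1, a paralog of Rpl22, was 12.9 to 21.7 CPM in MG saline, 16.8 to 34.1 in MLC saline and 20.4 to 30.3 in NoTx saline libraries. Rps27l, known as a p53 target, was 32.9, 59.7 and 38.0 CPM in MG saline and 55.5, 62.8, 91.6 and 139 CPM in MG seizure libraries. These groups overlapped, and the log2 difference of Rps27l was 1.00 (SE 0.39, adjusted p = 0.397, edgeR). In MLC saline Rps27l was 56.4, 56.5 and 38.9 CPM, below the 57.1 and 81.4 CPM of NoTx saline, with a log2 difference of -0.45 (SE 0.45, adjusted p = 1.00, edgeR). Rpl3l had 2 counts in MLC saline replicate 3, 1 and 4 counts in the NoTx saline libraries and 0 in the rest, and Rpl10l had 0 in all libraries. The copies Rps3a2, Rps3a3, Rpl6l, Rpl32l and Rps12l1 are annotated as processed pseudogenes and are 97.2% to 100% identical to their core gene over the aligned part, so their reads may be split with it and their values are uncertain. The lowest mean levels of tested members were those of Rps12l1 (0.0475 CPM), Rpl32l (0.0909) and Rps3a3 (0.153).

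MG were compared with NoTx microglia. No member passed in either treatment by edgeR, against 0.053% of all genes after saline and 0.0742% after seizure, with 1 member at an unadjusted p under 0.05 in each (3.4% and 11.1% of all genes) and 0 called by DESeq2 or limma-voom. The median of members was -0.03 after saline (all genes 0.02) and 0.10 after seizure (all genes 0.00). The P-stalk genes had log2 differences of -0.02 (Rplp0), 0.11 (Rplp1) and 0.49 (Rplp2) after saline and -0.02, 0.25 and 0.24 after seizure (adjusted p at least 0.949, edgeR). Rpl7l1 was lower in MG than NoTx without overlap after seizure, with a log2 difference of -0.31 (SE 0.30, adjusted p = 0.878). It and Rps12, which was higher, were the only members without overlap there, where 2.09% and 1.76% of all genes were lower and higher.

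After seizure, most members had slightly higher fitted values than after saline, and no single member passed. Positive log2 differences were found for 70 of 87 in MG, 69 in MLC and 64 in NoTx, against 46.2%, 46.7% and 48.4% of all genes. The medians of members were 0.24 in MG (all genes -0.08), 0.26 in MLC (all genes -0.06) and 0.08 in NoTx (all genes 0.00). The medians of MG and NoTx depended on single libraries. The MG median was 0.04 without MG saline replicate 1 (all genes -0.05), 0.04 without MG seizure replicate 3 (all genes -0.14) and 0.41 without MG saline replicate 2 (all genes 0.00). The NoTx median was -0.10 without NoTx saline replicate 1 and 0.34 without replicate 2 (all genes 0.00 in both), and 0.03 and 0.13 without NoTx seizure replicates 2 and 3 (all genes -0.07 in both). With 1 MLC library left out the MLC median ran from 0.23 to 0.36. By edgeR 0 members were called in any of the 3 cell types, where 0.0371%, 0% and 0.106% of all genes were called, and DESeq2 and limma-voom also called 0. Unadjusted p values under 0.05 were found for 3, 4 and 1 members, against 11.8%, 11.9% and 7.35% of all genes. Over the core genes Spearman's rho between GC content and log2 difference was -0.10 in MG, -0.38 in MLC and 0.18 in NoTx, and the part of GC content was not tested per gene. Without MG seizure replicates 3 and 4 and MLC seizure replicate 5, which had few genes at equal depth, the MG median was -0.18 and that of all genes -0.25. Positive medians were not particular to the members. In MG, MLC and NoTx, mitochondrial ribosomal proteins had 0.49, 0.17 and 0.15. Mitochondrially encoded transcripts had 0.79, 1.17 and 0.25. The lists of translation initiation, of ribosome biogenesis and of mTOR and Myc control, described below, had medians of both signs.

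Rps6, the 40S protein that S6 kinase phosphorylates, had log2 differences of 0.43 (SE 0.30), 0.45 (SE 0.28) and 0.12 (SE 0.35) in MG, MLC and NoTx. Rps27 was 182, 150 and 149 CPM in MLC saline and 196 to 355 CPM in MLC seizure libraries. These groups did not overlap, and the log2 difference was 0.69 (SE 0.28, adjusted p = 0.359, edgeR). It was 1 of 5 members higher without overlap in MLC, with Rpl37a, Rps7, Rpl31 and the copy Rpl6l, where 1.23% of all genes were. In MLC 0 were lower, against 5.05% of all genes. In MG 2 members were higher and 0 lower without overlap, against 4.02% and 11.9% of all genes. In NoTx 3 were higher and 1 lower, against 4.96% and 16.2%. Rpl3, at the peptidyl transferase centre, had 0.35 (SE 0.30), 0.26 (SE 0.28) and 0.37 (SE 0.36). Rps27a, made as a fusion with ubiquitin, had 0.22, 0.15 and 0.21, and Rpsa, also known as the laminin receptor, had 0.12, -0.04 and 0.18, all within 1 SE. The difference between seizure and saline libraries, which holds the batch as well, was not shown to differ between MLC and MG or between MG and NoTx. In edgeR 0 members passed either interaction test (0% and 0.0106% of all genes), and 0 had an unadjusted p under 0.05 (5.49% and 7.13%). The interaction of MLC against NoTx was not tested.

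**Figure D4:**
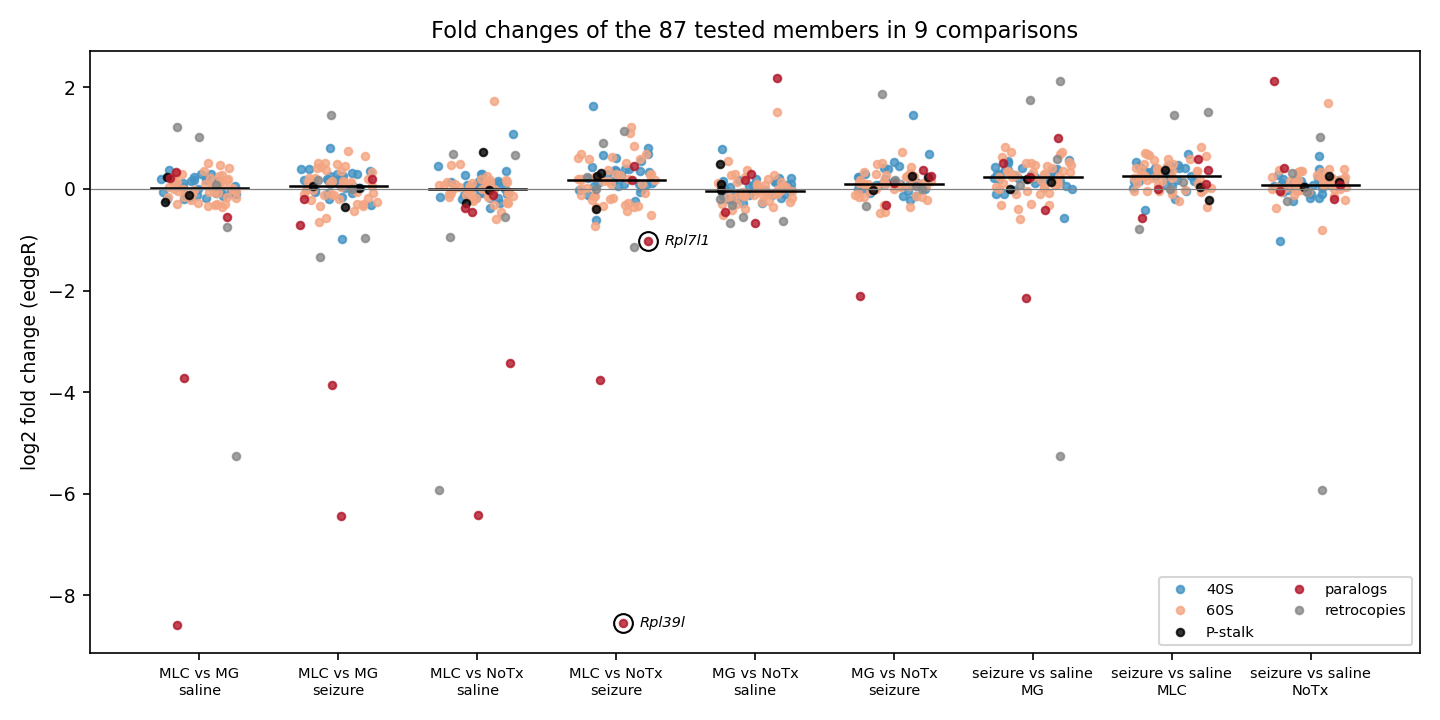
Log2 fold changes from edgeR of the 87 tested members (points, coloured by role) in 9 comparisons, with the median as a black line and called members ringed. Most members lie within 1 log2 unit of 0, the low points of the MLC comparisons are Rps4l, Rpl39l and the copy Rps12l1, which had counts in 2 libraries, and the ringed points are Rpl39l and Rpl7l1.

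Genes that act with the ribosome were taken from lists. Of the ribosomal protein genes with other names, Fau, Rack1 and Rpl36al were called in 0 comparisons, with log2 differences of MLC from MG between -0.09 and 0.20. Of 19 tested other mRNAs with a 5′ terminal oligopyrimidine tract, such as elongation factors, 0 were called in any comparison. Of 29 translation initiation factors, 0 rose and 2 fell in MLC against NoTx after seizure, a share near the 6.16% of all genes called there. They were Eif4g2, a cap-independent initiation factor (-1.24, SE 0.31, adjusted p = 0.0195), and Eif3g of the eIF3 complex (-1.07, SE 0.27, adjusted p = 0.0206). The median of that list was -0.61, against 0.00 over all genes. Of 56 ribosome biogenesis genes, 1 fell in MLC against MG after seizure, the nucleolar Rrp1 (-1.22, SE 0.32, adjusted p = 0.0245), where 5.88% of all genes were called.

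Of 25 genes of mTOR and Myc control, 2 were called in MLC against MG and 2 against NoTx after seizure, where 5.88% and 6.16% of all genes were. Rptor, the scaffold of mTOR complex 1, fell in MLC after seizure against both MG (-2.09, SE 0.46, adjusted p = 0.00628) and NoTx (-2.56, SE 0.48, adjusted p = 0.00169). Mycl fell against MG (-4.80, SE 1.34) and Rragd against NoTx (-7.97, SE 1.95), and 0 genes of the list rose. Mycl was 0.0265 to 18.2 CPM in MG seizure and 0.0863 to 0.943 CPM in MLC seizure libraries, which overlapped. Rragd was 0 to 8.92 CPM in NoTx seizure and at most 0.0295 CPM in MLC seizure libraries. It was 0 in all MG seizure libraries as well, so its low level was not particular to MLC. In MLC saline libraries Rragd was at most 0.132 CPM. It thus passed the low-count filter only through MG and NoTx libraries and could only come out lower in MLC. Its call is given as a description. Of 81 mitochondrial ribosomal proteins, Mrpl4 (-1.86) and Mrpl12 (-1.63) fell against MG, and Mrpl43 (-1.56) and Mrps7 (-1.30) fell against NoTx after seizure. These 2 of 81 in each comparison are a smaller share than the 5.88% and 6.16% of all genes. The list had medians of -0.31 and -0.21 in these comparisons. Of 24 tested mitochondrially encoded transcripts 1 was called, as mt-Co2 rose by 1.02 (SE 0.28, adjusted p = 0.0334, edgeR) in MLC against MG after seizure, where 5.88% of all genes were called. The median of that list was 0.68 there, with 17 of 24 positive. In MLC against NoTx after seizure it was 1.03, with 23 of 24 positive.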

How the data were processed

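The authors made the deposited estimated count per gene by aligning trimmed reads to GRCm39 and counting, in 21 libraries. The tools named in the submitters' processing notes are Trim Galore 0.6.7, cutadapt 3.4, STAR 2.7.10a and featureCounts of Subread 2.4.5. The origin of fractional counts was not given in the sources used here, and of the members' values above 0, 90.4% to 100% were not whole (28.2% to 45.4% over all genes). Rows of ribosomal pseudogenes named -ps held 0.815% to 1.69% of the members' counts. No molecular identifiers are named for the low-input PCR kit, so floors cover counting error only. Per the labels the libraries are biological replicates, whose spread sets the p-values. MLC seizure replicates 3 and 6, marked 11b, repeat the codes of replicates 2 and 4. No label used here says whether these pairs share an animal, and if they do, p-values with MLC seizure libraries rest on 4 animals and not 6. No libraries held identical values.

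Counts were rounded and fitted with edgeR 4.0.16 in R 4.3.3 (filter by group, TMM scaling, robust quasi-likelihood, 6 group means), with 11 comparisons. Benjamini-Hochberg adjustment was over all 18867 tested genes, with a limit of 0.05. DESeq2 1.42.0, limma-voom (limma 3.58.1) and other settings were alternatives, and the pipeline was tested on simulated data. Gene properties came from GENCODE M21 (GRCm38) by gene identifier, promoters from RefSeq. Genes were named by a rule: called members, P-stalk genes, paralogs, 6 fixed examples, and the extremes of mean level and of spread. Rpl13, Rps2, Rps12, the genes without overlap and those at the extremes of correlation or level per kilobase were chosen after their values were seen. The members and lists were chosen with earlier results of these data known. Some genes are not reported here, and they stay in the fits and counts.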

Additional observations from a re-analysis of the deposited data

Results flagged for a closer look

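The values of 21 named members and the members' share of counts were screened in the MG seizure and MLC seizure libraries. Of these 44 sets of 4 or 6 values, 2 had a library far from the others of its group. Chance gives about 1 in 20 for a single set, and the sets share libraries. Both far values were in MG seizure replicate 3. Rplp0, the base of the P-stalk, was 571 CPM there and 289 to 319 CPM in the other MG seizure libraries. Rpl22l1 was 40.1 CPM against 20.4 to 22.7 CPM. This library had a total of 47413134 counts and the fewest genes with at least 10 counts at equal depth (8914). Whether the few detected genes account for these values was not tested.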

How the results depend on the processing

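Of the 9 comparisons and 2 interactions, 7 had 0 called members under all alternatives run, among them MG against NoTx and seizure against saline. For MLC against NoTx after seizure (2 called), the count was 1 with RLE scaling, 1 with no low-count filter, 0 with only the groups compared, 0 with the code of the library names as a block, 1 without the 2 libraries coded 11b and 10 with DESeq2. Leaving out 1 library at a time gave 0 to 2: 0 without MLC seizure replicate 1 or 6 or NoTx seizure replicate 1 or 2, Rpl39l alone without NoTx seizure replicate 3, Rpl7l1 alone without MLC seizure replicate 2, 4 or 5, and Rpl7l1 with Rps4l without MLC seizure replicate 3. Without MG seizure replicates 3 and 4 and MLC seizure replicate 5, a choice made after seeing the data, it was 3 (Rpl36a, Rpl39l and Rpl7l1). With the replicate number as a block it was 0, and in all other comparisons 0 as well. Deviations of same-numbered libraries correlated by -0.06 to 0.13. Their median was 0.05 after saline and 0.01 after seizure, against -0.03 and -0.0037 for libraries of other numbers. With so few libraries in a group, these values cannot settle whether the numbers pair the libraries. For MLC against MG after seizure (0 called), the count was 1 with no filter, 4 with DESeq2, 1 with limma-voom, and 0 to 1 with 1 library left out (1, Rps4l, without MLC seizure replicate 3). After saline it was 1 with only the groups compared and 2 with limma-voom, and for MLC against NoTx after saline 2 with limma-voom. The call of Rpl7l1 held in 11 of 20 alternatives and that of Rpl39l in 6 of 19, and both were negative in all of them. The cause of these changes was not tested. With the 20 most abundant other genes left out of the total, the members' shares were 1.12%, 1.18% and 1.21% (saline) and 1.29%, 1.44% and 1.27% (seizure) in MG, MLC and NoTx. Relative to the median of all genes, the members' median after seizure against saline ran from 0.06 to 0.55 in MG, 0.24 to 0.50 in MLC and -0.10 to 0.39 in NoTx. RLE scaling moved the median of all genes in MLC against MG after seizure from 0.00 to 0.12, and an offset for the trend with GC content, added after the data were seen, moved it in MG seizure against saline to 0.51. Depth limited rare copies, since 3 counts were up to 0.417 CPM in a library.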
